A study of Rattus norvegicus with 6 samples.

Results

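Expression of 9 genes of the transforming growth factor beta (TGF-beta) pathway was examined in rat lung after inhaled silica: the ligand genes Tgfb1, Tgfb2 and Tgfb3, the receptor genes Tgfbr1, Tgfbr2 and Tgfbr3, the latent binding protein gene Ltbp1, and the target genes Smad7 and Ccn2. The genes were taken by name for their place in the pathway, and every probe set annotated to 1 of them alone was used. That gave 13 probe sets for 8 of the 9 genes, out of 31042 probe sets for 14217 named genes. Tgfbr2 was not analysed here, because no probe set was annotated to it alone. The animals were Lewis rats, an inbred strain, with RNA from lung tissue on 6 arrays, and the design counts 3 animals for the 3 arrays of each group. The silica group held 3 rats that breathed silica dust at 6.2 mg/m3 for 6 h per day, 5 days per week, for 6 weeks, and the control group held 3 rats kept in filtered air in similar chambers. No group carried a genetic change, and the labels state neither age nor sex nor the time from last exposure to tissue collection. In lung tissue, more cells of a type and more RNA per cell cannot be told apart.

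TGF-beta ligands are secreted in a latent form, folded into their own propeptide and tethered to matrix by latent binding proteins such as the product of Ltbp1. Once released, often by integrins or proteases, a ligand is bound by the type II receptor (Tgfbr2), which activates the type I receptor kinase (Tgfbr1); betaglycan (Tgfbr3) is a co-receptor that presents ligand, above all TGF-beta 2. The receptor phosphorylates Smad2 and Smad3, which enter the nucleus with Smad4 and induce genes that include the feedback inhibitor Smad7 and the matricellular protein gene Ccn2 (connective tissue growth factor). In lung the pathway is best known for driving fibroblasts to make matrix.

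The promoters of 2 members are shown because they stand at the ends of the pathway: Tgfb1, the ligand gene with the largest positive log2 fold change among the members, and Ccn2, a target gene whose signal was almost the same in both groups. Each runs from 250 bases before to 50 bases after the transcription start of the RefSeq table (build GRCr8), 5′ to 3′ on the gene's strand; Tgfb1 lies at chr1:90324062-90324361 on the plus strand and Ccn2 at chr1:22624565-22624864 on the minus strand. Capitals mark CAGAC, the box that Smad3 and Smad4 bind, and GGAATG, the core bound by TEAD factors, partners of the YAP and TAZ co-activators, on either strand.
Tgfb1: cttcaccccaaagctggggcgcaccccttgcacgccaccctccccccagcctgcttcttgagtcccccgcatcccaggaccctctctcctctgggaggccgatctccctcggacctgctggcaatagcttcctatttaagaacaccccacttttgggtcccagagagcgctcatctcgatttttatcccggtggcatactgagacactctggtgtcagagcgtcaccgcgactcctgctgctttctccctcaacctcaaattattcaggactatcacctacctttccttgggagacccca
Ccn2: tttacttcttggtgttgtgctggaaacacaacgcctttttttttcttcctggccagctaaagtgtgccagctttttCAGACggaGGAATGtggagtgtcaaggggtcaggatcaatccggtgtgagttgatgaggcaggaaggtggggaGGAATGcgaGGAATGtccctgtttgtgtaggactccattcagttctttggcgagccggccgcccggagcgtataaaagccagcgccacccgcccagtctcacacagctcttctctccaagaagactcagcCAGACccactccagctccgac

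The Ccn2 window held GGAATG 3 times, at 166, 101 and 92 bases before the start, and CAGAC at 174 bases before and 29 bases after it. The matches did not overlap each other. Over 33469 RefSeq promoter windows of 300 bases, 0.0956% held GGAATG at least 3 times, 14.2% held it at least once, 50.1% held CAGAC at least once and 16.1% held it at least 2 times. All 9 genes matched the table by symbol, and of the other 8 only Ltbp1 had a match to either motif, a CAGAC at 99 bases before its start. The AP-1 core TGANTCA, searched on both strands, was in none of the 9 windows and in 7.33% of all. A match of letters is a description of the sequence and not a bound site.

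**Figure D1:**
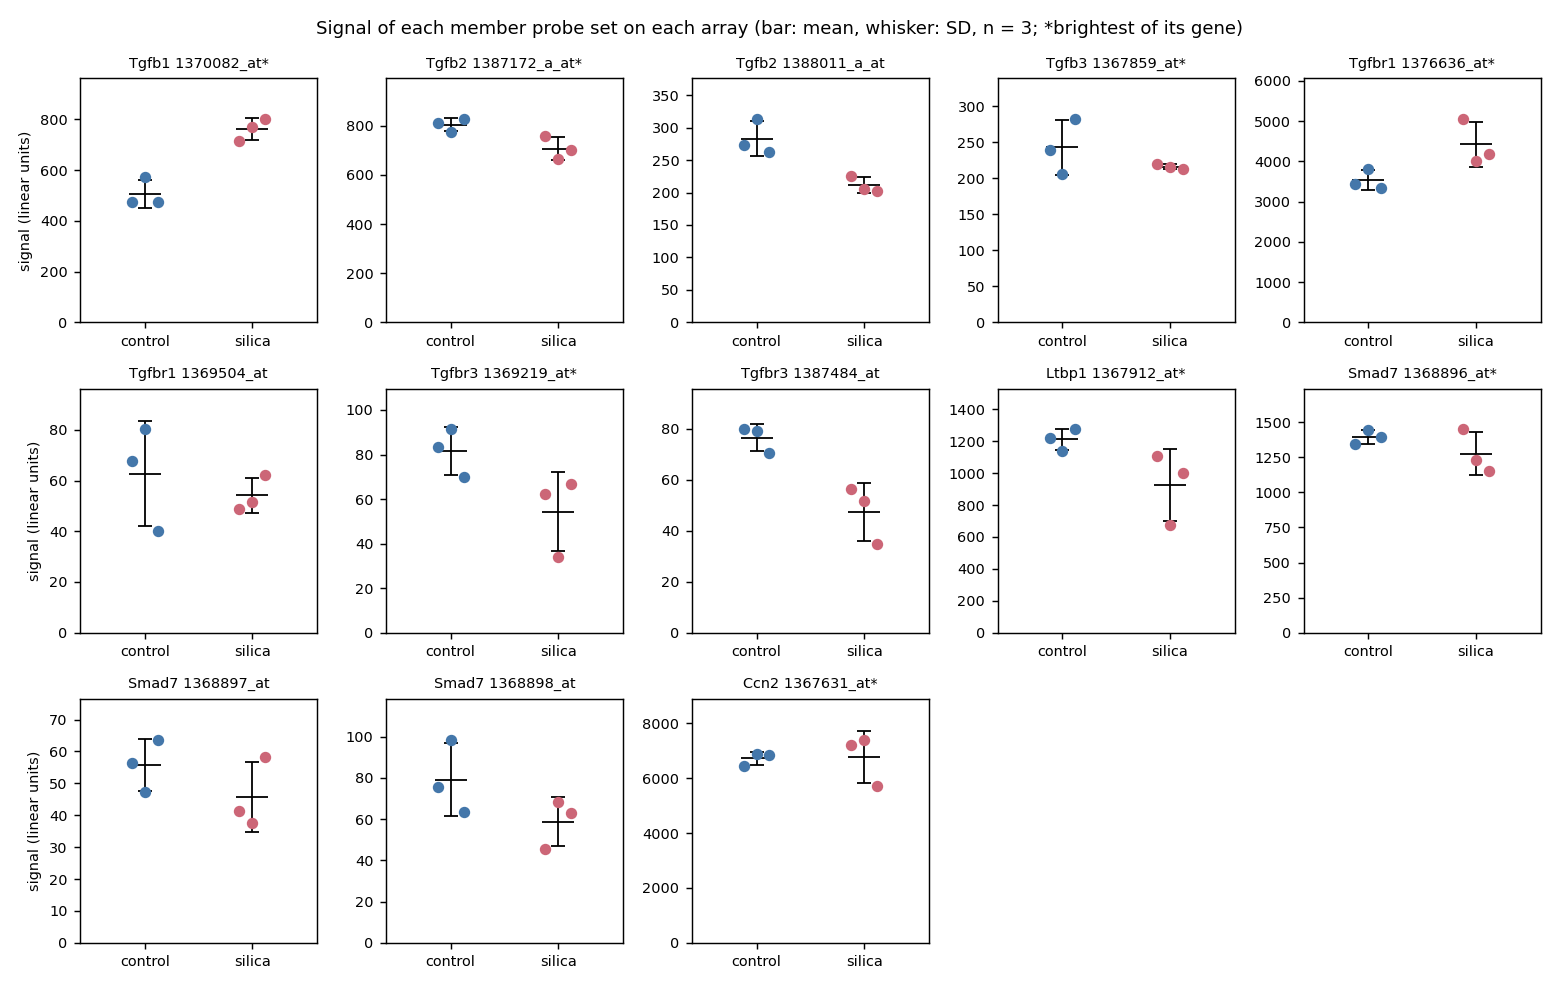
Signal of the 13 member probe sets on each array, on a linear axis from 0, with points for animals, a bar for the group mean and whiskers for the SD (n = 3 per group). The 3 silica points of Tgfb1 lie above all control points, those of both Tgfb2 and both Tgfbr3 probe sets lie below them, and those of Ccn2 fall on both sides of the controls.

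No member changed at the study-wide threshold. Of the 13 probe sets, 0 passed a limma adjusted p of 0.05, at which 1.08% of all probe sets passed, and 4 had an unadjusted p under 0.05 (2 higher and 2 lower), against 17.3% of all. In 7 of the 13 the arrays of the groups did not overlap, 2 with silica higher and 5 with silica lower. Over all probe sets 25.6% were apart in this sense, 13.3% with silica higher and 12.2% with silica lower. The median log2 fold change (silica minus control) was -0.18 over the 13 probe sets and -0.0010 over all probe sets. Taking the brightest probe set per gene, 5 of 8 were apart, Tgfb1 and Tgfbr1 with silica higher and Tgfb2, Tgfbr3 and Ltbp1 with silica lower. Over all genes taken this way, 18.7% were apart with silica higher and 12.7% with silica lower. An exact permutation test of 3 against 3 arrays cannot give a p under 0.1, and it gave 0.1 for each of the 7.

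The estimates of the 3 ligand genes differed in sign, and none passed the threshold in the reported fit. Tgfb1 encodes the isoform made by macrophages, platelets and many other cells. Its probe set (1370082_at) read 473.5, 571.7 and 474.3 in the control arrays and 713.3, 770.6 and 801.3 in the silica arrays. The lowest silica array was above the highest control array. The mean signal was 506.5 ± 56.5 (SD, n = 3) in control and 762 ± 44.7 in silica, a ratio of 1.50. On the log2(signal + 16) scale, which shrinks the change of dim probe sets, the fold change was 0.58 ± 0.12 (SE; 95% interval 0.29 to 0.86; limma adjusted p = 0.0938). Whether Tgfb1 passed depended on the setting. The adjusted p was 0.0150 with the dimmer 50% of probe sets left out, 0.0132 with an intensity trend and robust spread, 0.0386 with a pseudocount of 64 and 0.0444 when genes were tested on the mean of their probe sets, over 14217 genes. With 1 array left out it lay between 0.136 and 0.255, while the log2 fold change lay between 0.53 and 0.67.

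Tgfb2 was lower in silica in both of its probe sets. The brighter one (1387172_a_at) read 811.3, 777.1 and 827.7 in control and 757.5, 664.1 and 700.7 in silica. Every silica array was below every control array. The log2 fold change was -0.18 ± 0.10 (95% interval -0.42 to 0.06, limma adjusted p = 0.393). The dimmer one (1388011_a_at) read 273.1, 313.1 and 261.7 in control and 225.2, 205.3 and 202.3 in silica. These groups were apart as well, with a log2 fold change of -0.39 ± 0.11 (95% interval -0.66 to -0.12, limma adjusted p = 0.165). Only with the dimmer 50% of probe sets left out did it pass, at an adjusted p of 0.0410.

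Tgfb3, the isoform best known from palate and lung development, had 1 probe set (1367859_at). Control arrays read 239.9, 206.6 and 282.4, and silica arrays 220.6, 215.8 and 212.7. The silica values lay inside the control range and were much closer together, with an SD of 3.98 against 38.0. The log2 fold change was -0.15 ± 0.13 (95% interval -0.46 to 0.17, limma adjusted p = 0.614), an interval that includes 0. The estimate was -0.25 without control replicate 2 and -0.039 without control replicate 3.

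To set the ligands against each other within an array, each gene was taken by its brightest probe set. The log2 value of 1 gene was subtracted from that of another and centred on the control mean. For Tgfb1 minus Tgfb2, the control arrays gave -0.10, 0.22 and -0.13 and the silica arrays 0.57, 0.87 and 0.85. All silica arrays were above all control arrays, by 0.76 in the mean. The groups were already apart for each gene, Tgfb1 higher and Tgfb2 lower in silica. This separation thus followed from the single genes and is no further evidence. Tgfb1 minus Tgfb3 gave a like picture, with control arrays from -0.30 to 0.38, silica arrays between 0.61 and 0.82, and a mean difference of 0.72. For Tgfb2 minus Tgfb3 the groups overlapped and the mean difference was -0.04. The exact two-sided permutation p was 0.1 for the first and second pair, the smallest this design gives, and 0.9 for the third. That of the first pair was fixed by the separation of its single genes. Adjusted over the 4 pairs compared (these and 1 pair of receptors), the exact test gave 0.133, 0.133 and 0.9.

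**Figure D2:**
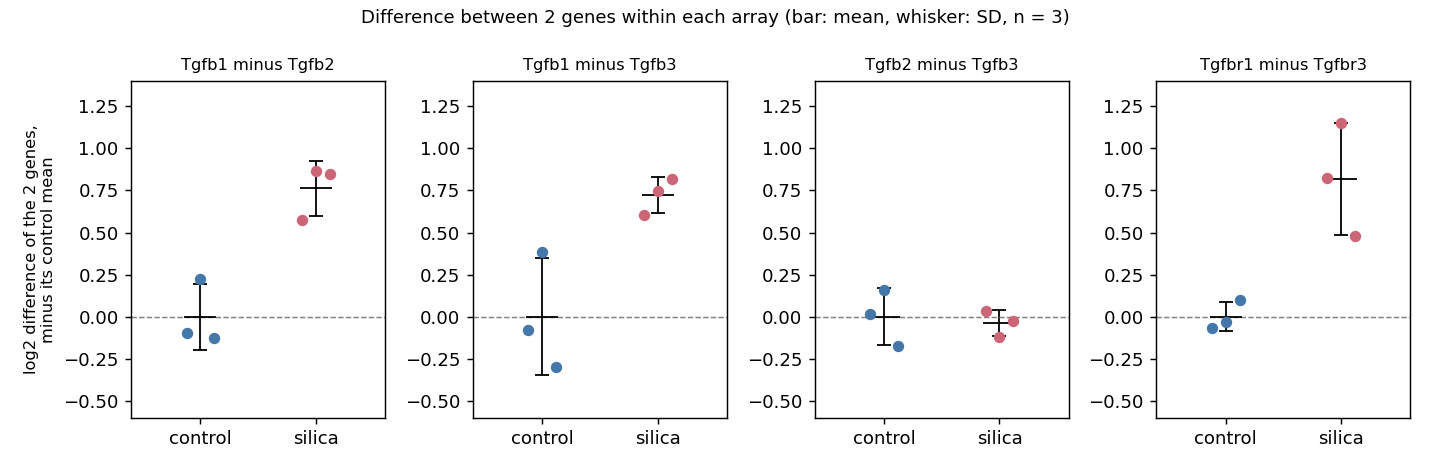
Difference of the log2(signal + 16) values of 2 genes within each array, minus its mean over control, for the 3 ligand pairs and the receptor pair, with points for animals, a bar for the mean and whiskers for the SD (n = 3). Each gene is taken by its brightest probe set. The silica arrays lie above the control arrays for Tgfb1 minus Tgfb2, Tgfb1 minus Tgfb3 and Tgfbr1 minus Tgfbr3, and overlap them for Tgfb2 minus Tgfb3. For Tgfb1 minus Tgfb2 and Tgfbr1 minus Tgfbr3 this follows from the single genes, whose groups were apart in opposite directions.

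Among the receptors, the brightest probe sets of Tgfbr1 and Tgfbr3 were on opposite sides of control. Tgfbr1, the type I receptor kinase also called ALK5, had its brighter probe set (1376636_at) at 3437.7, 3812.9 and 3339.2 in control and 5049.9, 4015.4 and 4193.3 in silica. The groups were apart, with silica replicate 1 the highest array and silica replicate 2 the nearest to control. The log2 fold change was 0.32 ± 0.13 (95% interval 0.01 to 0.63, limma adjusted p = 0.278). Its dimmer probe set (1369504_at) ranged from 40.0 to 80.2 in control and from 48.7 to 62.1 in silica. These ranges overlapped, the log2 fold change was -0.13 ± 0.22, and it turned to 0.03 without control replicate 2. The probe sets of Tgfbr1 thus differed in sign, and their mean had 0.09 ± 0.14 (limma adjusted p = 0.746 over 14217 genes).

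Tgfbr3, the betaglycan gene, was lower in silica in both probe sets, each under the array medians of 151.0 to 155.4. The leading one (1369219_at) read 83.2, 91.3 and 70.1 in control and 62.4, 33.9 and 66.7 in silica. Groups were apart, with control replicate 3 and silica replicate 3 close to each other and silica replicate 2 the lowest. Its log2 fold change was -0.50 ± 0.22 (95% interval -1.03 to 0.03, limma adjusted p = 0.310), and -0.27 without that array. The other one (1387484_at) read 79.8, 79.2 and 70.5 in control and 56.2, 51.5 and 34.6 in silica. Here silica replicate 3 was the lowest, and the log2 fold change was -0.56 ± 0.16 (95% interval -0.94 to -0.18, limma adjusted p = 0.166). Averaged over its probe sets, Tgfbr3 had -0.53 ± 0.13 (limma adjusted p = 0.0778 over 14217 genes). Within arrays, Tgfbr1 minus Tgfbr3 was higher in every silica array (0.83, 1.15 and 0.48) than in any control array (-0.07, -0.03 and 0.10). Its mean difference was 0.82, with an exact permutation p of 0.1 (0.133 adjusted over the 4 pairs). The groups were already apart for each gene, in opposite directions, so this separation and its p followed from the single genes. The pair used the brightest probe sets and not the other Tgfbr1 probe set, which had -0.13. With a pseudocount of 64 the mean difference was 0.62, and with a pseudocount of 1 it was 0.95.

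Ltbp1, whose product anchors latent TGF-beta in the matrix, read 1222.4, 1141.5 and 1275.0 in control and 1109.2, 673.4 and 1000.2 in silica (1367912_at). All silica arrays were below control, and silica replicate 2 was far below the others. The log2 fold change was -0.41 ± 0.20 (95% interval -0.89 to 0.07, limma adjusted p = 0.348), and it was -0.20 without silica replicate 2.

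Of the targets, Smad7, the inhibitory Smad that blocks the type I receptor, had its bright probe set (1368896_at) at 1346.7, 1448.3 and 1396.4 in control and 1449.8, 1229.7 and 1150.0 in silica. Silica replicate 1 was above every control array and the other silica arrays were below them all. The log2 fold change was -0.13 ± 0.12 (95% interval -0.42 to 0.15, limma adjusted p = 0.609). It was -0.23 without silica replicate 1, -0.064 without silica replicate 3 and -0.27 with RNA quality as a covariate. Its other probe sets, both dim, had -0.23 ± 0.16 (1368897_at, 47.3 to 63.7 in control and 37.6 to 58.3 in silica) and -0.34 ± 0.19 (1368898_at, 63.4 to 98.5 and 45.4 to 68.1). All 3 estimates were negative and in each the groups overlapped. The mean over the 3 probe sets had -0.23 ± 0.08 (limma adjusted p = 0.167 over 14217 genes).

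Ccn2, the gene of connective tissue growth factor, had the brightest of the 13 probe sets (1367631_at). Control arrays read 6447.4, 6871.5 and 6858.0, and silica arrays 7222.1, 7405.3 and 5701.8. Silica replicates 1 and 2 were above all controls and replicate 3 was below them. The means were 6726 ± 241 and 6776 ± 935, and the log2 fold change was 0.00 ± 0.13. Its 95% interval ran from -0.32 to 0.32, which leaves room for changes of that size in either direction (limma adjusted p = 0.997).

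**Figure D3:**
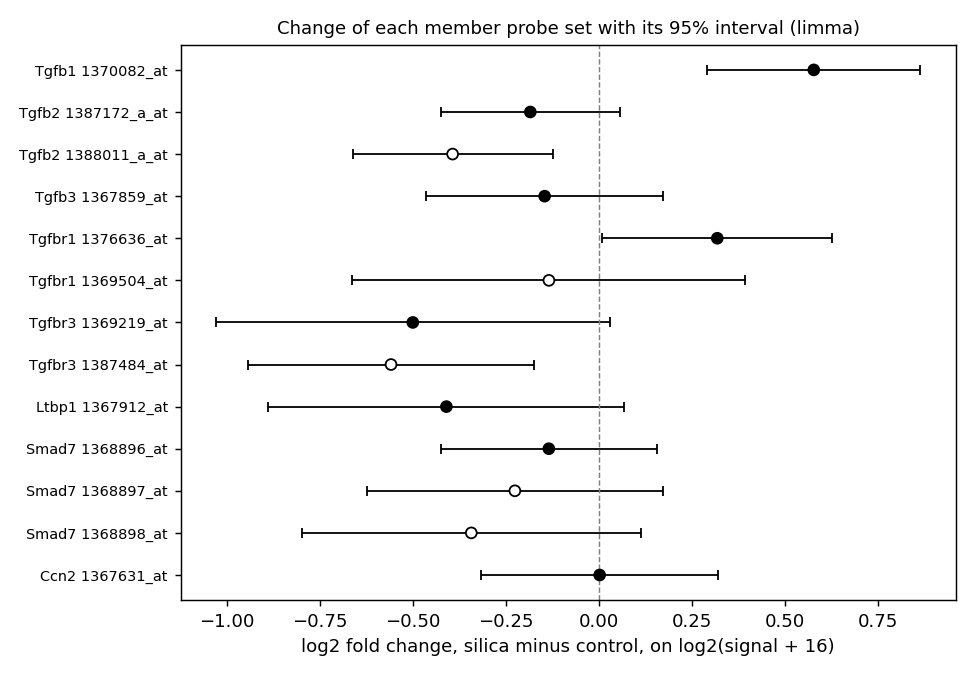
Log2 fold change (silica minus control, on log2(signal + 16)) of each of the 13 member probe sets with its 95% interval from limma; filled points are the brightest probe set of a gene. Tgfb1, at 0.58, and the brighter Tgfbr1 probe set have intervals above 0, the dimmer Tgfb2 and the second Tgfbr3 probe set have intervals below 0, and none passed after adjustment over all probe sets.

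The arrays differed in RNA quality in a way that partly followed the groups. The mean log2 ratio of 3-prime to 5-prime signal of the actin and GAPDH control probe sets was 1.23, 1.20 and 0.996 in control and 1.67, 1.50 and 1.15 in silica, so silica replicate 3 lay within the control range. With that ratio as a covariate, Tgfb1 had 0.62 ± 0.16, the dimmer Tgfb2 probe set -0.49 ± 0.14 and the second Tgfbr3 probe set -0.84 ± 0.12. The brighter Tgfbr1 probe set had 0.19 ± 0.16. In that fit 0 of the 31042 probe sets passed by limma, and these Tgfb1, Tgfb2 and Tgfbr3 probe sets were the 3 of the 13 with an unadjusted p under 0.05, against 10.3% of all probe sets in the same fit.

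The other genes of the pathway were followed in lists drawn up from general knowledge of it, each gene by its brightest probe set, where 1.67% of all genes passed (1.55% rose and 0.12% fell), 19.9% had an unadjusted p under 0.05, 18.7% had silica apart and higher and 12.7% had silica apart and lower. The median over all genes was 0.02. The fits in which Tgfb1 passed called more genes throughout. With the dimmer 50% left out, 8.2% of the genes tested rose and 3.22% fell, with an intensity trend and robust spread 5.96% and 2.61%, and with a pseudocount of 64 3.65% and 0.703%. With genes tested on the mean of their probe sets, 560 of 14217 passed in either direction. By brightest probe set in the reported fit, 238 of 14217 passed. Of 18 measured genes for latent storage and activation of TGF-beta, 1 rose and 0 fell by limma, and 6 had an unadjusted p under 0.05 (2 rose with the intensity trend). The gene that passed was Mmp9, a gelatinase able to release latent TGF-beta, from 56.0 ± 0.493 to 236 ± 34.3 (log2 fold change 1.80 ± 0.13, limma adjusted p = 0.0127); a dimmer probe set had 1.89 and did not pass. Nrros, which holds latent TGF-beta 1 on macrophages and microglia, had 1338 ± 121 and 1824 ± 156 (0.44 ± 0.12, limma adjusted p = 0.152). Mmp2 had 0.36 and the proprotein convertase gene Furin, whose enzyme cuts the TGF-beta precursor, had 0.32, both with silica apart and higher and neither past the threshold. In this list silica was apart and higher in 7 genes and apart and lower in 3, with a median of 0.07.

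Of 9 measured related receptors and decoys, 0 passed by limma and 5 had an unadjusted p under 0.05, 4 of them lower. The count that fell was 3 with the dimmer 50% left out, 4 with the intensity trend and 1 with pseudocount 64. In 5 of the 9 silica was apart and lower, and in 1 apart and higher. That 1 was Lrg1, whose product is secreted and is not a receptor (log2 fold change 0.44, limma adjusted p = 0.282). Bmpr1a, a type I receptor for bone morphogenetic proteins, had a mean of 735 ± 115 against 429 ± 51.2 under silica (log2 fold change -0.75 ± 0.16, limma adjusted p = 0.0997). Bambi, a decoy receptor that lacks a kinase, had 923 ± 127 and 600.2 ± 113 (-0.62 ± 0.18). Bmpr2, the type II receptor of the same branch, had 7124 ± 258 and 4956 ± 965 (-0.54 ± 0.16), and a dimmer probe set had -0.33. The median of the list was -0.24, and -0.14 without silica replicate 2.

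For 24 Smads and their regulators 0 passed by limma, 3 had an unadjusted p under 0.05, all lower, and the median was -0.04. In those same 3 fits 1, 2 and 1 of them fell. Silica was apart and lower in 6 and apart and higher in 1. Smad9, which acts in the bone morphogenetic protein branch, had 1318 ± 123 and 839 ± 27.9 (log2 fold change -0.64 ± 0.11, limma adjusted p = 0.0634). Trim33, a ubiquitin ligase that acts on Smad4, had -0.28 ± 0.09. Smad6, the other inhibitory Smad, had -0.43 ± 0.15, and its 3 dimmer probe sets had -0.55, -0.21 and -0.32.

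Among 34 measured genes that TGF-beta induces in fibroblasts and epithelium, 1 rose and 0 fell by limma, 9 had an unadjusted p under 0.05 (6 higher and 3 lower) and the median was 0.05. With the dimmer 50% left out 3 rose and 1 fell, with the intensity trend 4 rose and 2 fell, and with pseudocount 64 2 rose and 0 fell. Silica was apart and higher in 8 and apart and lower in 3. The gene that rose in the reported fit was Comp, a matrix protein gene, from a dim 37.5 ± 4.27 to 70.7 ± 3.08 (log2 fold change 0.70 ± 0.10, limma adjusted p = 0.0468). Comp was itself among the dimmer 50% and so was not tested with these left out. With the intensity trend it was tested and did not pass. Timp1, a metalloproteinase inhibitor gene, had 501 ± 32.9 and 920 ± 134 (limma adjusted p = 0.0604) and the transcription factor gene Bhlhe40 had 150 ± 22.2 and 238 ± 31.7. Cdkn2b, the cell cycle inhibitor p15 that TGF-beta induces in epithelium, was on the other side, with 366 ± 51.9 and 214 ± 41.6 (-0.74 ± 0.18, limma adjusted p = 0.128). The list thus held values on both sides of 0.

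In the lists of 10 extracellular binders, 5 further CCN genes and 11 other ligands of the family 0 genes passed by limma, and 1, 0 and 0 had an unadjusted p under 0.05. Their medians were -0.15, 0.03 and 0.07. A2m, a protease inhibitor that also binds TGF-beta, had 32.7 ± 13.0 and 58.2 ± 2.24, with silica apart and higher. Nbl1 had -0.24 and decorin (Dcn), a proteoglycan that binds TGF-beta, -0.55 ± 0.36 with overlapping groups. Ccn5, a CCN protein without the last domain of the family, had 891 ± 75.6 and 746 ± 59.5 with silica apart and lower, Ccn3 had -0.30 and the very dim Ccn4 0.35 ± 0.42. The bone morphogenetic protein genes Bmp6 and Bmp5 had -0.27 and 0.17, and Gdf11 -0.23; 3 dimmer probe sets of Bmp6 had -0.62, -1.49 and -0.50, and none passed.

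**Figure D4:**
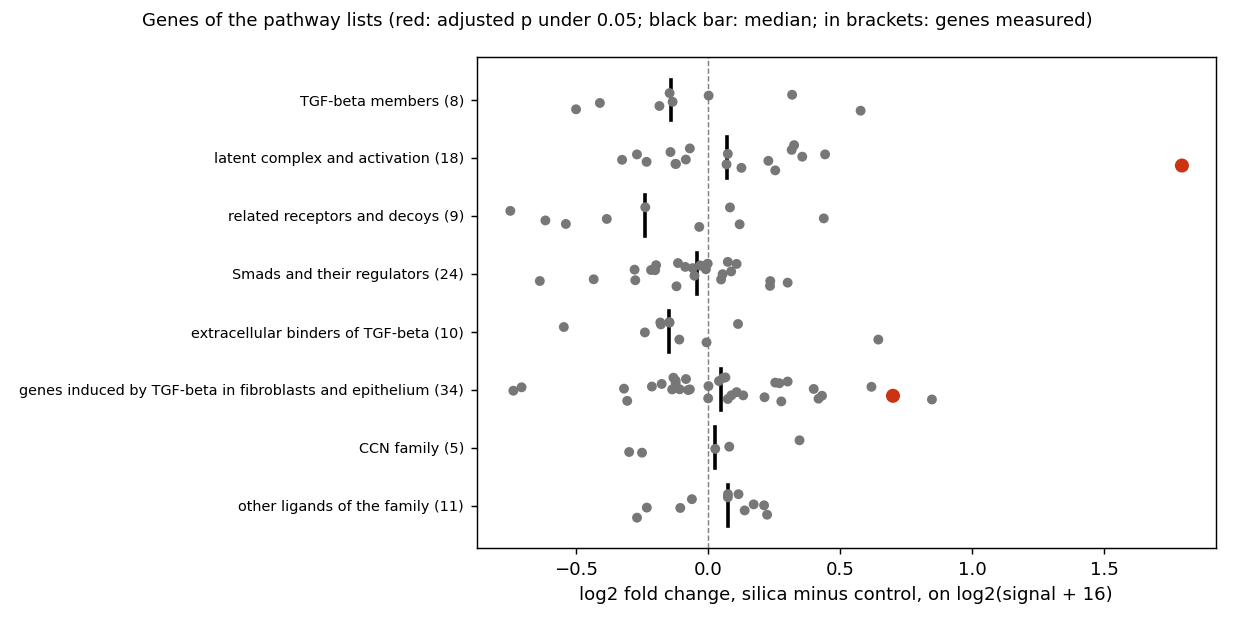
Log2 fold change (silica minus control) of each measured gene in the member list and 7 pathway lists, 1 point per gene by its brightest probe set, with a black bar at the list's median. Mmp9 and Comp, in red, are the genes past a limma adjusted p of 0.05, and the median of the related receptors and decoys is at -0.24.

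Genes that mark other cells moved beside these values. Of 6 measured macrophage markers, 4 rose (C1qa, Cd68, C1qb and Itgax). The others, Csf1r and Mrc1, had log2 fold changes of 0.10 and 0.03 with overlapping groups. The median of the 6 was 0.86, and their summed signal was 11386 to 11984 in control and 16347 to 17903 in silica. Of 5 T cell markers, 4 rose (Cd3d, Cd3e, Cd2 and Cd3g; median 1.23), with sums of 1472 to 1846 and 3107 to 4257. No marker read under 1 on any array. With any 1 of the 6 arrays left out, none of the 8 markers that rose nor Comp passed by limma, and Mmp9 passed only without silica replicate 1. Macrophages and T cells both make Tgfb1, and the part of more such cells in its signal was not tested. Of 4 markers of platelets and megakaryocytes, another source of Tgfb1, 0 passed and 0 had an unadjusted p under 0.05. Their median was 0.02 and their sums overlapped (2492 to 2963 and 2500 to 3091). Pf4, at 2408 ± 211 in control, made up most of these sums, and Ppbp and Gp9 were dim. Of 2 markers of regulatory T cells, both dim, 0 passed, with 1 at an unadjusted p under 0.05.

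No marker of the alveolar wall passed in the reported fit, but with the intensity trend and robust spread 3 of 4 alveolar type 1 markers and 1 endothelial marker fell, and with the dimmer 50% left out 0 and 1. All 4 alveolar type 1 markers (Aqp5, Pdpn, Ager and Hopx) had silica apart and lower, with sums of 53266 to 55851 in control and 44413 to 47857 in silica; none passed and 3 had an unadjusted p under 0.05. Of 5 endothelial markers 0 passed, with 1 at an unadjusted p under 0.05, a median of -0.12 and Kdr the lowest at -0.33 (limma adjusted p = 0.153). Of 7 fibroblast markers 0 passed and 1 had an unadjusted p under 0.05, Col1a1 with 742 ± 129 and 999 ± 75.0 (0.43 on the log2 scale, and 0.20 in its dimmer probe set). The 5 markers of smooth muscle and myofibroblasts, Acta2 among them, ranged from -0.18 to 0.06, with none at an unadjusted p under 0.05. Markers of alveolar type 2 cells (5, median -0.10), club cells (2, -0.29) and mesothelium (2, 0.12) also had 0 passing, and 0, 1 and 0 had an unadjusted p under 0.05. Their part in the lower signals of Tgfb2, Tgfbr3 and Ltbp1 was not tested. Surfactant gene Sftpc read 23196 ± 518 in control and club cell gene Scgb1a1 26459.9 ± 923, so the defining markers of lung were bright. Of 4 cardiac muscle markers 0 passed and 0 had an unadjusted p under 0.05, and they summed to 172 to 2911 in control and 597 to 2134 in silica and so varied between animals of both groups.

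The genes whose pattern over the 6 arrays was nearest to that of Tgfb1 were found among 10163 genes with a mean log2 value of at least 7, by the root mean square difference of log2 values after each gene was centred on its own mean. They were the C-type lectin receptor gene Clec4a1 (0.040), Dcaf15 (0.049), the semaphorin gene Sema4b (0.055) and the ATP-gated channel gene P2rx4 (0.067). Their log2 fold changes were 0.60, 0.58, 0.52 and 0.53, none past the threshold. Fold changes near that of Tgfb1 followed from this choice and are no further evidence. Around Tgfbr3, the lower member with the smallest p by its brightest probe set, the nearest were the transporter gene Flvcr2 (0.11), Mlf1 (0.12), the exchange factor gene Rapgef4 (0.12) and Iqub (0.12). Their log2 fold changes were -0.44, -0.45, -0.57 and -0.33, none past the threshold, and the groups of Iqub overlapped. Silica replicate 2 was the lowest array for each of the 4 genes, as for the brightest Tgfbr3 probe set. This followed from the choice by likeness. In the other Tgfbr3 probe set silica replicate 3 was the lowest.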

How the data were processed

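The deposited values are linear signal intensities of 1-colour short-oligonucleotide arrays hybridised with biotin-labelled cRNA, per the labels' protocols. The software that summarised them was not given in the sources used here, nor whether probe sets were filtered. Every array had a mean of 500.141 to 500.149 after trimming 2% at each end, so the authors' values were scaled by array. Probe sets were named through the platform annotation given here, with symbols updated by gene identifier to RefSeq (GRCr8): 20826 had 1 gene (20758 matched), 436 several and 9780 none. The 57 control probe sets were left out of the tests, 31042 remaining.

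Values were taken as log2(signal + 16) without further normalization. The difference of silica minus control was fitted with limma 3.58.1 in R 4.3.3 (lmFit and eBayes, group as the only term, 4 residual and 2.18 prior degrees of freedom), with Benjamini-Hochberg adjustment over all 31042 probe sets at 0.05, and the fit was tested on simulated data. The spread is between 3 animals per group, and their small number limits precision. Named are all members and, from each list, the genes past the threshold with up to 3 others of smallest p. Also named are the 4 genes nearest in pattern to Tgfb1 and to the lower member with the smallest p. Marker lists are given as counts, and further genes named from them were chosen after their values were seen. These include Col1a1, Kdr, Acta2, the alveolar type 1 markers, Csf1r, Mrc1, Pf4, Ppbp and Gp9. Lrg1 was also named after its value was seen. Members and lists were chosen with earlier results of these data known. Same-numbered arrays are not stated to be paired. The correlations of their deviations from the group means were 0.092, 0.035 and 0.088, against -0.079 to -0.0022 between differently numbered arrays. Deviations cancel out within a group, so the negative values follow largely from the positive ones and are no separate evidence of pairing. The replicate block served as an alternative.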

Additional observations from a re-analysis of the deposited data

How the results depend on the processing

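The direction of each member by its brightest probe set was kept in every alternative that could be fitted (15 for Tgfbr3, which is among the dimmer 50%, and 16 for the others), except for Ccn2, whose estimate lies near 0. Ccn2 had -0.0086 with median centring, -0.022 with array weights, -0.16 with the RNA quality covariate and between -0.067 and 0.12 with 1 array left out. Of the dim probe sets, 1369504_at of Tgfbr1 lay between -0.36 and 0.028 with 1 array left out and 1368897_at of Smad7 had 0.022 with the RNA quality covariate. The log2 fold change of Tgfb1 was 0.58 with the dimmer 50% left out or with an intensity trend and robust spread and 0.54 with a pseudocount of 64, the fits in which it passed. The count of members past the threshold was 1 in these and with the mean of all probe sets, the gene being Tgfb1 each time, and 0 in the others. Tgfb2 minus Tgfb3 lay between -0.13 and 0.040 with 1 array left out.

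The count of probe sets past the threshold was 335 in the reported fit. It was 1675 with the dimmer 50% left out, 1862 with the intensity trend and robust spread, 919 with pseudocount 64, 43 with pseudocount 1, 40 without moderation, 6 at an adjusted p of 0.01, 0 with the RNA quality covariate and between 0 and 12 with 1 array left out. With the replicate block, which has fewer residual degrees of freedom, 1 passed, and Tgfb1 had 0.58 (limma adjusted p = 0.188). Of the 10 pathway and marker genes that passed, 0 passed with that block, the covariate or no moderation, 2 with pseudocount 1, and 1, Mmp9, in 1 of the 6 fits with an array left out, that without silica replicate 1. Comp did not pass with quantile normalization, median centring or the intensity trend and robust spread. It was not tested with the dimmer 50% left out, being among these, and it passed with array weights and with pseudocount 64.

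Medians of the lists moved beyond the spread between arrays as follows. Latent storage and activation had -0.041 with the mean of all probe sets and 0.0094 to 0.11 with 1 array left out, related receptors and decoys -0.29 to -0.14 with 1 left out, and Smads and their regulators -0.10 with the mean of all probe sets. The CCN genes had -0.28 with the dimmer 50% left out, -0.16 with the covariate and -0.27 to 0.13 with 1 array left out, and the other ligands -0.016 and -0.017 in the first and second of these. The causes were not tested. Both Tgfbr3 probe sets lay under the array medians of signal, and the precision at that level was not tested apart.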
